A study of Homo sapiens with 64 samples.

Results

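Oligosaccharyltransferase (OST) is the enzyme of the endoplasmic reticulum (ER) membrane that attaches N-linked glycans to proteins. The 9 genes described here encode its catalytic subunits STT3A and STT3B, the shared subunits RPN1, RPN2, DDOST, DAD1 and OST4, the translocon adaptor OSTC, and TUSC3, a thioredoxin-like subunit. They were taken by symbol from a deposited table of read counts for 60649 genes in 64 libraries, and 9 of 9 were found. The cells were established lines of non-small-cell lung cancer (H460, H838, H1755 and H1703), and each of the 4 lines has 4 treatments with 4 replicates. From the day after plating, the cells received DMSO vehicle, the MYC inhibitor MYCi975 at 5 µM, the class IIa histone deacetylase inhibitor TMP195 at 25 µM, or both compounds, for 24 hours in every group. The labels give no separate doses for the combination, no genetic change in any group and nothing on whether replicates were separate cultures, so p-values measure the spread between libraries, which may be technical. Every treatment in a line shares the same 4 vehicle libraries.

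An N-linked glycan is first built on the lipid dolichol and is then moved as a block by OST to an asparagine of a protein entering the ER. Human cells hold a pair of OST complexes. The STT3A complex docks to the protein translocon through OSTC and KRTCAP2 and acts while the protein is still being made, whereas the STT3B complex carries TUSC3 or its paralog MAGT1 and acts on sites that STT3A passed over. RPN1, RPN2, DDOST, DAD1, OST4 and TMEM258 belong to both, and several OST genes belong to the wider set of ER genes that cells raise when unfolded protein accumulates in the ER.

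Positions are from GENCODE 29 (GRCh38). STT3A is at chr11:125591712-125625215, STT3B at chr3:31532638-31637622, RPN1 at chr3:128619970-128681075, RPN2 at chr20:37178410-37241623, DDOST at chr1:20651767-20661544, DAD1 at chr14:22564905-22589269, OSTC at chr4:108650584-108667820, TUSC3 at chr8:15417215-15766649 and OST4 at chr2:27070472-27071773. Annotated exons of STT3A share 80 bases with CHEK1, and those of DDOST share 427 bases with PINK1-AS, in both cases on the same strand.

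RefSeq promoters (GRCh38.p14, 250 bases before to 50 after the RefSeq gene start) were matched for 6 of the 9 members: STT3A, RPN2, DDOST, DAD1, OSTC and OST4. Those of STT3A (chr11:125592602-125592901, plus strand), DDOST (chr1:20661320-20661619, minus strand) and OSTC (chr4:108650349-108650648, plus strand) are shown because these members had the largest mean rises under TMP195 among the 6. The RefSeq starts are not the GENCODE positions given above. For STT3A and RPN2 the whole promoter window lies inside the GENCODE gene. Capitals mark the CCAAT box, the motif CCACG and the E-box CACGTG, on either strand.

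STT3A promoter: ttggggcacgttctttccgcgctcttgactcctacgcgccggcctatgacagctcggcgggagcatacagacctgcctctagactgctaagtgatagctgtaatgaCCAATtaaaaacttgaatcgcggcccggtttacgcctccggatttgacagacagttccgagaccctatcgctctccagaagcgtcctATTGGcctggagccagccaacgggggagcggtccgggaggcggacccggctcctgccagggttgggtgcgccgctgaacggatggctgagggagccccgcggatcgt

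DDOST promoter: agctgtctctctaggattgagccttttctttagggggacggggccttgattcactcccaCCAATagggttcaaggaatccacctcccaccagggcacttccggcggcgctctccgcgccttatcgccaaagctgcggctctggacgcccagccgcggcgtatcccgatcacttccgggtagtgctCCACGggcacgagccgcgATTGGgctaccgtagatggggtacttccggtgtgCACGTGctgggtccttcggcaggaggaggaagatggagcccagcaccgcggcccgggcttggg

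OSTC promoter: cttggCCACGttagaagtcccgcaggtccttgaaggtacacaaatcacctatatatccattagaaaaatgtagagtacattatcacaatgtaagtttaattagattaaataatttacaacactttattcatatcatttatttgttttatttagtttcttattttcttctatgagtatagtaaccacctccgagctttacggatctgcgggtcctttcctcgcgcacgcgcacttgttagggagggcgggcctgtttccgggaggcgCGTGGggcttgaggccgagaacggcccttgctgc

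The ER stress response element (ERSE), in which CCAAT and CCACG stand 9 bases apart, was searched on both strands. So were its second form, ERSE-II, in which ATTGG is followed after 1 base by CCACG, and the unfolded protein response element, whose letters are TGACGTGG. None of these 3 motifs was found in the 6 promoters, while 0.0769%, 0.0541% and 0.729% of 35116 promoters of the same length hold them. CCAAT alone was in the STT3A, DDOST and DAD1 promoters and in 34.6% of all promoters. CCACG alone was in those of DDOST, OSTC and OST4 and in 38.1% of all. The E-box, the sequence bound by MYC and MAX, began 13 bases before the RefSeq start of DDOST and was in 7.26% of promoters. A match here describes letters and not binding, and a missing match covers this window only.

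Total counts ran from 17352066 to 34236552 per library, and every member had at least 295 counts in every library. The libraries fell into 4 sets by EEF1G counts, replicate number and the naming style of their columns. These sets are not balanced over the treatments in H460, H838 and H1703. In H460, 7 libraries had 639 to 759 CPM (counts scaled to a fixed library total) for EEF1G, which was at 0 in the other 57, and these 7 are called the EEF1G-counted set. The 16 libraries of replicate 4 and 5 further libraries whose columns are named in another style (the second set) had 5.12% to 10.7% of counts from mitochondrial rRNA, against 10.1% to 19.1% in the 36 libraries left, called the first set, and 13.9% to 16.4% in the EEF1G-counted set. All 4 TMP195 libraries of H838 fall in those 21, but only 1 of its 4 vehicle libraries. The second set holds treated libraries only, in H838 and H1703. Leukocyte marker genes summed to at most 3.48 CPM, endothelial ones to at most 6.10 CPM and fibroblast ones to at most 33.7 CPM, the last in H1755. Mesenchymal markers summed to 591 to 4620 CPM over all libraries. H1703 had an epithelial marker sum of 35.2 to 62.7 CPM, against 512 CPM or more in every library of the other lines.

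Without drug, RPN1 was the most abundant member in all 4 lines, both in CPM and per kilobase of annotated exon. RPN1, which binds a subset of the enzyme's membrane protein substrates, stood at 141 ± 14.2 CPM per kilobase in H460 and 183 ± 13.1 in H1703 (SD, n = 4). TUSC3 was the least abundant member per kilobase in each line, from 3.17 ± 0.371 in H1703 to 11.4 ± 2.01 CPM per kilobase in H1755. In CPM, DAD1 and OST4 had lower means than TUSC3 in H460, H838 and H1755, so its rank there rests on annotated exon length. STT3B was higher than STT3A per kilobase in every line, at 68.1 ± 2.98 against 19.9 ± 1.21 in H838 and 42.7 ± 1.74 against 29.3 ± 3.07 in H1755. In H1755 their CPM were alike (214 ± 8.70 for STT3B and 217 ± 22.7 for STT3A), so that order rests on annotated exon length.

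TUSC3 set the lines apart most. Its vehicle levels were 19.2, 15.1, 15.2 and 16.3 CPM in H1703, 39.0, 38.8, 42.0 and 49.0 in H838, 41.1, 37.4, 42.2 and 50.9 in H460 and 67.7, 61.9, 63.7 and 44.2 in H1755. No H1703 library reached the lowest library of any other line. H1755 was higher than H1703 by 1.85 ± 0.13 (log2, SE), or 3.61-fold (edgeR adjusted p = 2.44e-09), and higher than H460 by 0.47 ± 0.13 (adjusted p = 0.00494). H460 and H838 did not differ beyond their spread (log2 0.03 ± 0.13, adjusted p = 0.847). Its paralog MAGT1 did not follow this order: it was 80.9 ± 5.18 CPM in H1703 and 51.2 ± 2.28 in H1755. The H1755 against H460 call for TUSC3 was lost without replicate 1, 2 or 3 of both lines and without the EEF1G-counted libraries, at an adjusted p of at most 0.0985.

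The other members varied less between vehicle lines. STT3A was highest in H1755, at 217 ± 22.7 CPM against 161 ± 13.0 in H460, 147 ± 8.92 in H838 and 141 ± 10.4 in H1703. H1755 exceeded H460 by 0.43 ± 0.09 (adjusted p = 0.000356), while the steps from H460 to H838 and from H838 to H1703 were not called (adjusted p = 0.189 and 0.604). STT3B had another order, with 341 ± 14.9 CPM in H838, 311 ± 19.5 in H1703, 214 ± 8.70 in H1755 and 210.3 ± 19.7 in H460. Only its middle step, H1703 over H1755, was called (0.53 ± 0.08, adjusted p = 1.13e-05). RPN2 was highest in H838 (mean 335 CPM), 0.59 ± 0.07 above H460 (adjusted p = 7.07e-07), and lowest in H1703 (185 ± 7.93 CPM), with H460 and H1755 between. DDOST, which anchors the catalytic core, was 115 ± 6.21 CPM in H838 and 108 ± 9.60 in H1755, with 67.7 ± 4.46 in H1703 and 64.3 ± 14.6 in H460. The H1755 over H1703 step was called (0.67 ± 0.13, adjusted p = 0.000224), but neither the step above it nor the one below. Over the ends of their orders, RPN1 differed by 0.37 ± 0.09, DAD1 by 0.46 ± 0.13 and OSTC by 0.62 ± 0.25, with no neighbouring step called. The small subunit OST4 stood at 26.8 ± 1.84 to 28.5 ± 3.97 CPM, with no called difference between lines.

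Of the 9 members, 3 differed between H460 and H838, 5 between H460 and H1703, 3 between H460 and H1755, 4 between H838 and H1703, 4 between H838 and H1755 and 5 between H1703 and H1755. Over all genes tested, the shares called in those 6 comparisons were 62.7%, 61.6%, 60.2%, 59.7%, 55.9% and 58.8%. The members' shares therefore lay at or below the background of line differences. TUSC3 differed in 5 of the 6 pairs.

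**Figure D1:**
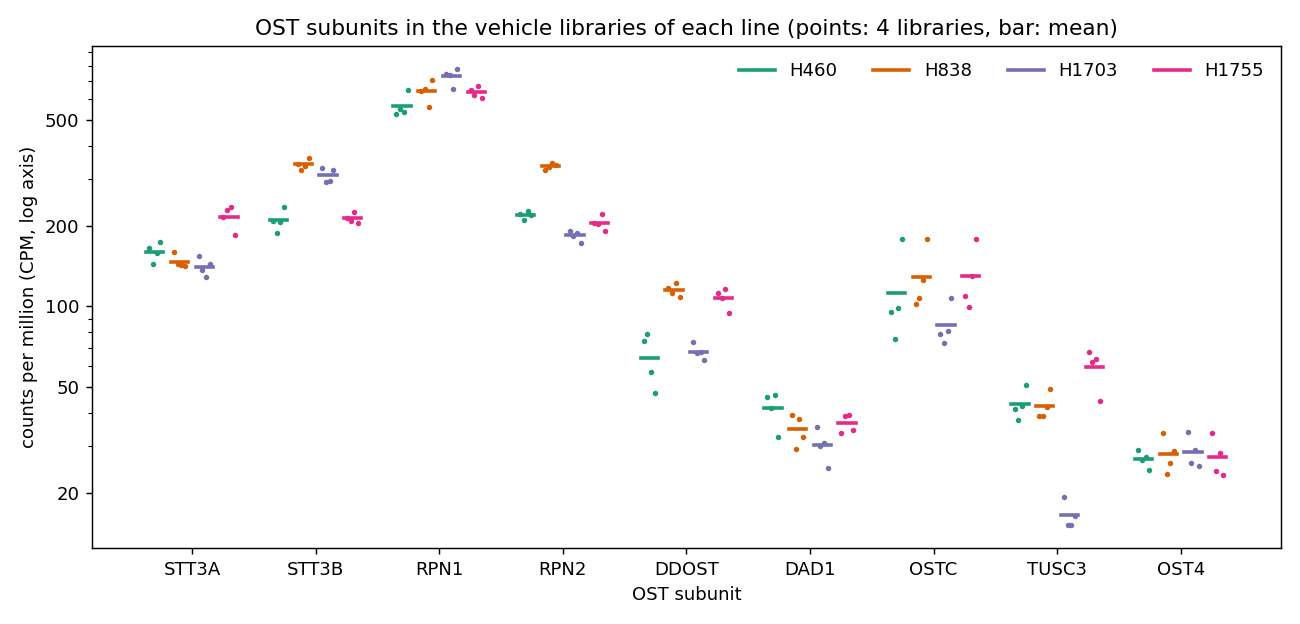
Level of the 9 OST subunits in the vehicle libraries of the 4 lines, in CPM on a log axis; points are the 4 libraries of a line and bars their mean. TUSC3 shows the widest separation, with all H1703 libraries at 15.1 to 19.2 CPM, while the OST4 means of the 4 lines lie within 26.8 to 28.5 CPM.

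MYCi975 alone did not move any member past the threshold in any line. In the comparison of MYCi975 with vehicle, 0 of 9 members were called in each of H460, H838, H1703 and H1755, where 1.09%, 0%, 10.2% and 0.0643% of all genes tested were called (edgeR quasi-likelihood test, Benjamini-Hochberg adjusted p below 0.05 over all genes tested). At an unadjusted p below 0.05 the counts were 1, 2, 1 and 0 members, and DESeq2 called 0, 0, 1 and 0 (3.15%, 0.17%, 13.6% and 0.44% of all genes). The share of all genes at an unadjusted p below 0.05 is not given for any comparison in this text. STT3A was 148, 150.5, 154 and 154 CPM in H460, 173, 149, 148 and 166 for H838, 172, 147, 146 and 136 for H1703 and 217, 244, 246 and 204 for H1755. Each of these groups overlapped its vehicle group, and the log2 changes ranged from -0.08 to 0.11. Over all members and lines, only RPN2 in H460 did not overlap its vehicle group. It was 236 to 274 CPM with MYCi975 and 212 to 229 CPM with vehicle, and was not called. The largest shifts were OSTC in H838 at 0.42 ± 0.24 (adjusted p = 0.709) and RPN1 in H1703 at -0.26 ± 0.09 (adjusted p = 0.0814). With the replicate number as a block, RPN1 in H1703 was called (-0.26, adjusted p = 0.0191), where 25.6% of all genes were. Over the 4 lines, 0 of 9 members were called for the mean effect (6.56% of all genes) and 0 of 9 for a difference between lines (0.154%), by edgeR and by DESeq2; 1 member had an unadjusted p below 0.05 in each.

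With TMP195, STT3A was called higher in all 4 lines, though close to the threshold. STT3A was 166, 144, 158 and 175 CPM with vehicle and 204, 189, 206 and 241 with TMP195 in H460. For H838 the values were 161, 145, 143 and 142 against 203, 188, 200.2 and 183. For H1703 they were 154, 137, 129 and 144 against 184, 176, 163 and 180.4, and for H1755 216, 229, 236 and 185 against 323, 346, 308 and 257. Every TMP195 library was above every vehicle library of its line. The log2 change was largest in H1755 (0.51 ± 0.09, SE; adjusted p = 0.027) and smallest in H1703 (0.31 ± 0.08; adjusted p = 0.0197), with 0.40 ± 0.08 for H838 (adjusted p = 0.0247) and 0.39 ± 0.08 for H460 (adjusted p = 0.0285). Members not called with TMP195 also had all TMP195 libraries above all vehicle libraries, among them RPN2 in H460 and H838. So did STT3B and DAD1, each in H838 and H1755. The share of all genes with groups that did not overlap was not computed for any comparison in this text. These are bulk libraries, in which a change in the share of cells that hold an mRNA and one in its amount per cell cannot be told apart.

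The adjusted p-values for STT3A lay close to the threshold within a line, and leaving out 1 library often ended the call while the log2 change kept its sign. In H460 the call was lost without TMP195 replicate 1, 3 or 4 or vehicle replicate 1, 2 or 3 (adjusted p 0.0627 to 0.093). In H838 and H1755 it was lost without any of the 8 libraries except TMP195 replicate 4 (0.0504 to 0.146 and 0.0538 to 0.119), and in H1703 without TMP195 replicate 1 or 4 or vehicle replicate 2 or 3 (0.0551 to 0.0714). Without the filter on low counts, which raises the number of genes tested, STT3A was called in none of the 4 lines. Its edgeR adjusted p was then 0.0558, 0.0735, 0.0551 and 0.0985 in H460, H838, H1703 and H1755. In H460 the first library set holds only replicate 3 of TMP195 and of vehicle, so that set cannot test the call (log2 change 0.39). Over the fits that left out libraries, the log2 change in the lost calls stayed between 0.28 and 0.54.

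RPN1 was called higher with TMP195 in H838 and H1755, and DDOST in H838; a difference between lines was not called for either. RPN1 went from 640.3, 652, 561 and 707 CPM to 933, 926, 969 and 839 in H838 (0.53 ± 0.09, adjusted p = 0.0103) and from 646, 622, 669 and 604 to 757, 898, 808 and 809 in H1755 (0.36 ± 0.07, adjusted p = 0.0437), with no overlap of groups. In H460, RPN1 was 525, 550.4, 535 and 648 against 662, 682, 624 and 832, and in H1703 747, 736, 656 and 778 against 719, 774, 686 and 858; both pairs of groups overlapped. DDOST was called in H838 alone, at 117, 113, 123 and 108 CPM with vehicle and 145, 143, 157 and 146 with TMP195 (0.37 ± 0.08, adjusted p = 0.0405). Its change in H1755 was of the same size, 112, 108, 116 and 94.2 against 156, 146, 137 and 117 with no overlap, but was not called (0.36 ± 0.09, adjusted p = 0.173). The RPN1 call in H1755 and the DDOST call in H838 were lost without any of the 8 libraries (adjusted p 0.0553 to 0.192 and 0.0554 to 0.198), and the RPN1 call in H838 without TMP195 replicate 1 or 3 or vehicle replicate 3 (0.0515 to 0.0595).

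In H838, vehicle and TMP195 also differ in library set, and with a term for the set in the fit STT3A, RPN1 and DDOST were no longer called there (STT3A 0.42, adjusted p = 0.0938; RPN1 0.36, adjusted p = 0.137; DDOST 0.42, adjusted p = 0.0825). DAD1, a small subunit whose loss triggers cell death, was the only member called in that fit (0.62, adjusted p = 0.0421), where 0.32% of all genes were called. Within the first set alone no H838 comparison exists, as it holds no TMP195 library. In H1755, where sets and treatments are balanced, the set term raised the count of called members from 2 to 6. The share of all genes called there rose with it, from 0.43% to 4.29%.

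OSTC had the largest fitted changes with TMP195 in H838 and H1755 and the widest spread of the members. In H838 it went from 102 to 179.8 CPM with vehicle to 236 to 267 with TMP195, without overlap, a log2 change of 0.99 ± 0.24 that was not called (adjusted p = 0.0762). Without the filter on low counts it was called there (0.98, edgeR adjusted p = 0.00952). In H1755 the change was 0.57 ± 0.27 (adjusted p = 0.908), in H460 0.31 ± 0.27 and in H1703 0.26 ± 0.12. Replicate 4 had the highest OSTC level in 14 of the 16 groups, at a median of 1.58 times the mean of the other 3 libraries, and the median coefficient of variation within groups was 27.0%, against 5.87% for STT3B. In H838 the 4 TMP195 libraries and the replicate 4 libraries belong to the sets with low mitochondrial rRNA, and the part of this in the H838 change was not tested apart from the set term, under which OSTC was 0.54 (adjusted p = 0.0934). In H1755 the first set alone gave 0.49 (adjusted p = 0.0225).

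In all, 1 member rose in H460, 3 for H838, 1 for H1703 and 2 for H1755, where 1.03%, 0.417%, 6.07% and 0.351% of all genes tested rose with TMP195; no member fell, and the remaining members in each line did not pass the test. The medians of the 9 log2 changes were 0.24, 0.33, 0.09 and 0.30 in those lines, with medians over all genes of 0.00, 0.01, 0.01 and 0.00. STT3B, the other catalytic subunit, changed by 0.21 ± 0.08, 0.15 ± 0.07, 0.11 ± 0.08 and 0.19 ± 0.06 in H460, H838, H1703 and H1755, uncalled in each. RPN2, a subunit of the enzyme's membrane core, was between 0.01 and 0.24, TUSC3 between 0.06 and 0.22, and OST4, a very small subunit that stabilises the catalytic subunits, between 0.03 and 0.13. Same-numbered libraries deviated together in all 4 lines for this comparison. With the replicate number as a block, 4 members were called in H460 (STT3A, STT3B, RPN1, RPN2), 4 in H838 (STT3A, RPN1, DDOST, OSTC), 2 in H1703 (STT3A, OSTC) and 7 in H1755 (all but TUSC3 and OST4), where 5.15%, 7.46%, 23.8% and 10.5% of all genes were called.

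**Figure D2:**
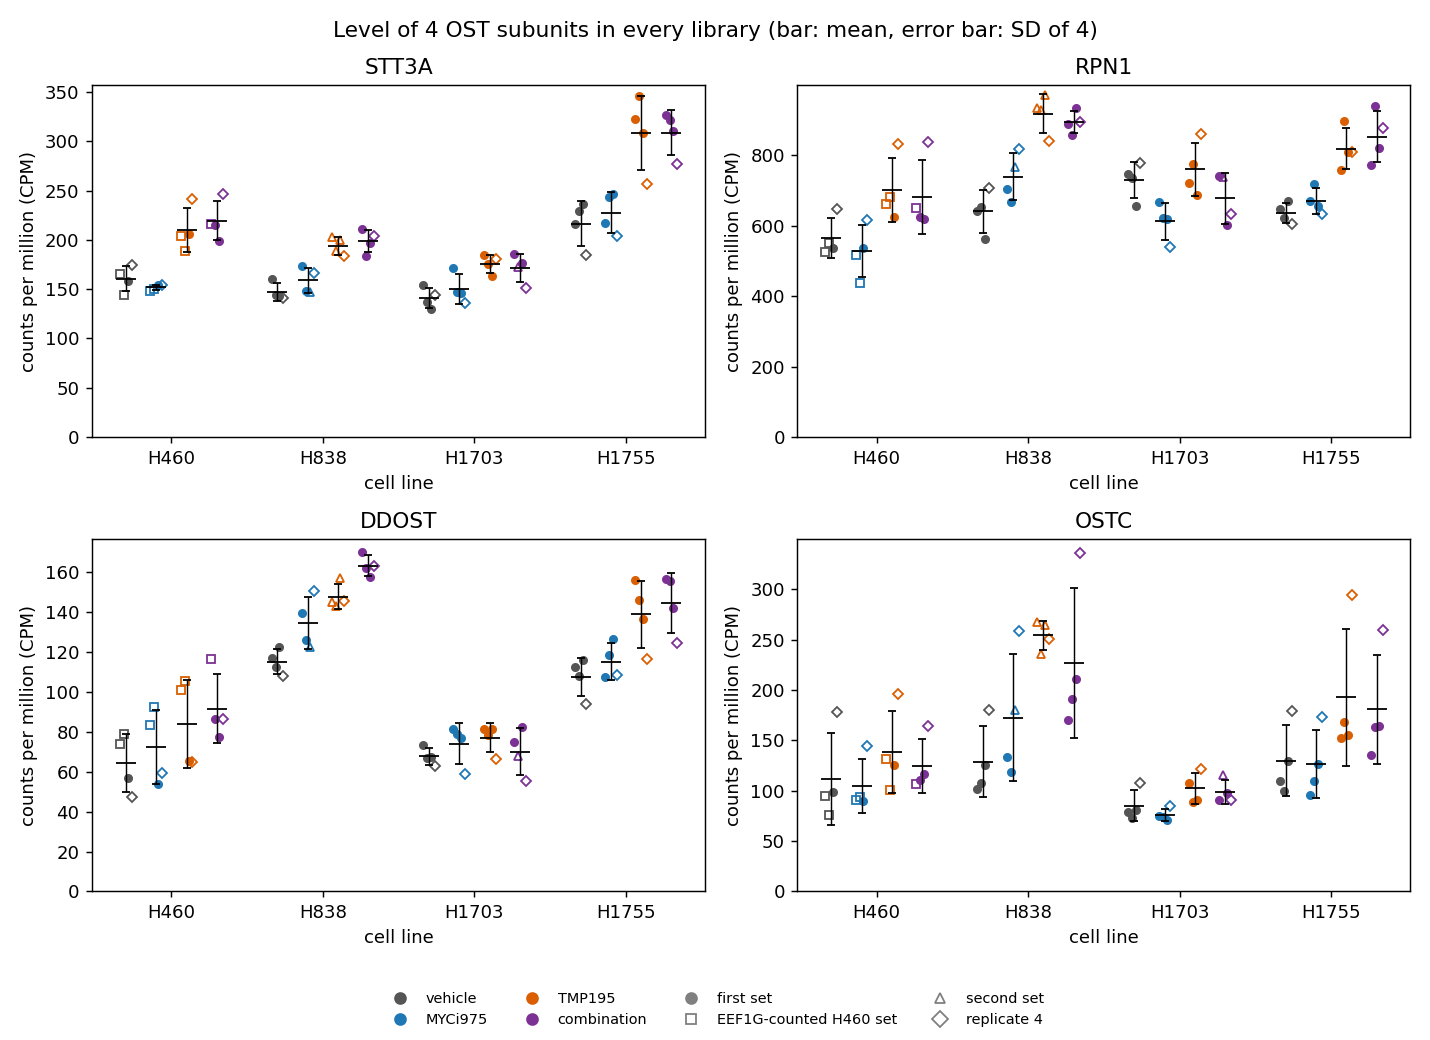
Level of STT3A, RPN1, DDOST and OSTC in each of the 64 libraries in CPM, by line and treatment; the marker shape gives the library set, horizontal bars the mean and error bars the SD of 4 libraries. STT3A with TMP195 lies above vehicle in every line, and open diamonds show replicate 4, the highest OSTC library in 14 of 16 groups.

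With both compounds, STT3A was again called in all 4 lines. It was 216, 215, 199 and 246 CPM in H460, 211, 184, 197 and 204 for H838, 186, 172, 176 and 151 for H1703 and 327, 322, 310.0 and 277 for H1755. These values lay above all vehicle libraries except in H1703, where combination replicate 4 was below vehicle replicate 1. The log2 change was 0.51 ± 0.09 in H1755 (adjusted p = 0.0119), 0.44 ± 0.08 for H838 (adjusted p = 0.0065), 0.44 ± 0.08 for H460 (adjusted p = 0.00188) and 0.27 ± 0.08 for H1703 (adjusted p = 0.0116). No single left-out library ended these 4 calls. They also held without the filter on low counts (adjusted p 0.00421 to 0.0441). In H460 the first set holds only replicate 3 of vehicle, so that set cannot test the call (log2 change 0.40). Leaving out a replicate number from both groups ended the STT3A call in H838 and H1703 for 2 of the 4 numbers and in H1755 for 3 of them (adjusted p of at most 0.22), and in H460 for none.

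RPN2 moved in opposite directions between lines under the combination. In H460 it rose from 222, 212, 229 and 219.9 CPM to 324, 352, 304 and 341 (0.57 ± 0.06, adjusted p = 6.93e-05), and in H838 from 324, 333, 345 and 338 to 411, 411, 395 and 425 (0.29 ± 0.07, adjusted p = 0.0351). In H1703 it fell from 192, 184, 189 and 174 to 153, 151, 163 and 116 (-0.35 ± 0.12, adjusted p = 0.0259). The groups did not overlap in these 3 lines. In H1755 it was 205, 203, 222 and 192 with vehicle and 248, 279, 255 and 219 with both compounds, which was not called (adjusted p = 0.211). The difference between lines was itself significant (edgeR, 3 degrees of freedom, adjusted p = 1.4e-05) and remained called without any 1 replicate number. The H460 call withstood each left-out library. The H838 call was lost without any of the 8 libraries (adjusted p 0.0614 to 0.1) and the H1703 call without combination replicate 4 or vehicle replicate 1, 2 or 3 (0.0526 to 0.0994).

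RPN1 and DDOST were called upward in H838 and H1755 and not in H460 or H1703. RPN1 rose in H838 to 889, 856, 933 and 893 CPM (0.48 ± 0.09, adjusted p = 0.00596) and in H1755 to 773, 938, 820.2 and 878 (0.42 ± 0.07, adjusted p = 0.0088). In H460 it was 649.7, 623, 617 and 837 (0.26 ± 0.12, adjusted p = 0.185) and in H1703 739.8, 738, 601 and 631 (-0.11 ± 0.09, adjusted p = 0.36), neither called. Its difference between lines had an adjusted p of 0.0109, which was not below 0.05 without replicate 1, 2 or 3 (at most 0.153). DDOST rose in H838 to 170.4, 162, 158 and 163 CPM (0.51 ± 0.08, adjusted p = 0.00294) and in H1755 to 157, 156, 142 and 125 (0.42 ± 0.09, adjusted p = 0.0324), both without overlap. In H1703 it was 74.8, 67.8, 82.6 and 55.4, close to its vehicle values of 73.6, 66.9, 67.4 and 62.8. The DDOST call in H1755 was lost without any of the 8 libraries except combination replicate 4 (adjusted p 0.0678 to 0.124).

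DDOST in H460 carried a further spread. Its 7 EEF1G-counted libraries read 74.1 to 117 CPM and the other 9 read 47.5 to 86.4, over all treatments. With vehicle the values were 74.1, 78.7, 57.0 and 47.5, of which the first pair is EEF1G-counted, and with both compounds 117, 86.3, 77.3 and 86.4, of which the first is. The change of 0.50 ± 0.24 was not called (adjusted p = 0.195), but with a term for the library set it was 0.66 (adjusted p = 8.18e-07).

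TUSC3, which carries the oxidoreductase function of the STT3B complex, fell with the combination in H1703 from 19.2, 15.1, 15.2 and 16.3 CPM to 12.6, 14.1, 13.4 and 13.7 (-0.30 ± 0.10, adjusted p = 0.0253). In H460 it was 54.3, 57.0, 47.6 and 56.7 against 41.1, 37.4, 42.2 and 50.9 (0.32 ± 0.11, adjusted p = 0.0617). In H838 and H1755 the changes were 0.15 ± 0.09 and -0.01 ± 0.18. The H1703 fall was not called without combination replicate 1 or vehicle replicate 1 (adjusted p 0.0696 to 0.103). Nor was it called without the filter on low counts (edgeR adjusted p = 0.105). STT3B rose in H460 (0.28 ± 0.08, adjusted p = 0.0214), which was lost without combination replicate 1 or 4 or vehicle replicate 1, 2 or 3 (0.0554 to 0.0688), and was between 0.04 and 0.18 in the other lines. DAD1, OSTC and OST4 were not called in any line, but OSTC in H838 was called without the filter on low counts (0.82, edgeR adjusted p = 0.0152). DAD1 was -0.28 ± 0.15 in H1703 and between 0.22 and 0.28 elsewhere.

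Under the combination, 3 members rose in H460, 4 for H838, 1 for H1703 and 3 for H1755, against 9.72%, 2.29%, 19.9% and 1.23% of all genes tested. In H1703 a further 2 fell, where 18.5% of all genes fell, so that 3 of 9 members changed in a line where 38.3% of all genes did. The medians of the 9 log2 changes were 0.28, 0.29, -0.11 and 0.28 in H460, H838, H1703 and H1755, with medians over all genes of -0.03, 0.00, 0.02 and 0.00. Same-numbered libraries deviated together in H838 and H1755, and with the replicate number as a block 5 and 7 members were called there (14.9% and 24.2% of all genes); the added members were OSTC in H838 and STT3B, RPN2, DAD1 and OSTC in H1755.

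**Figure D3:**
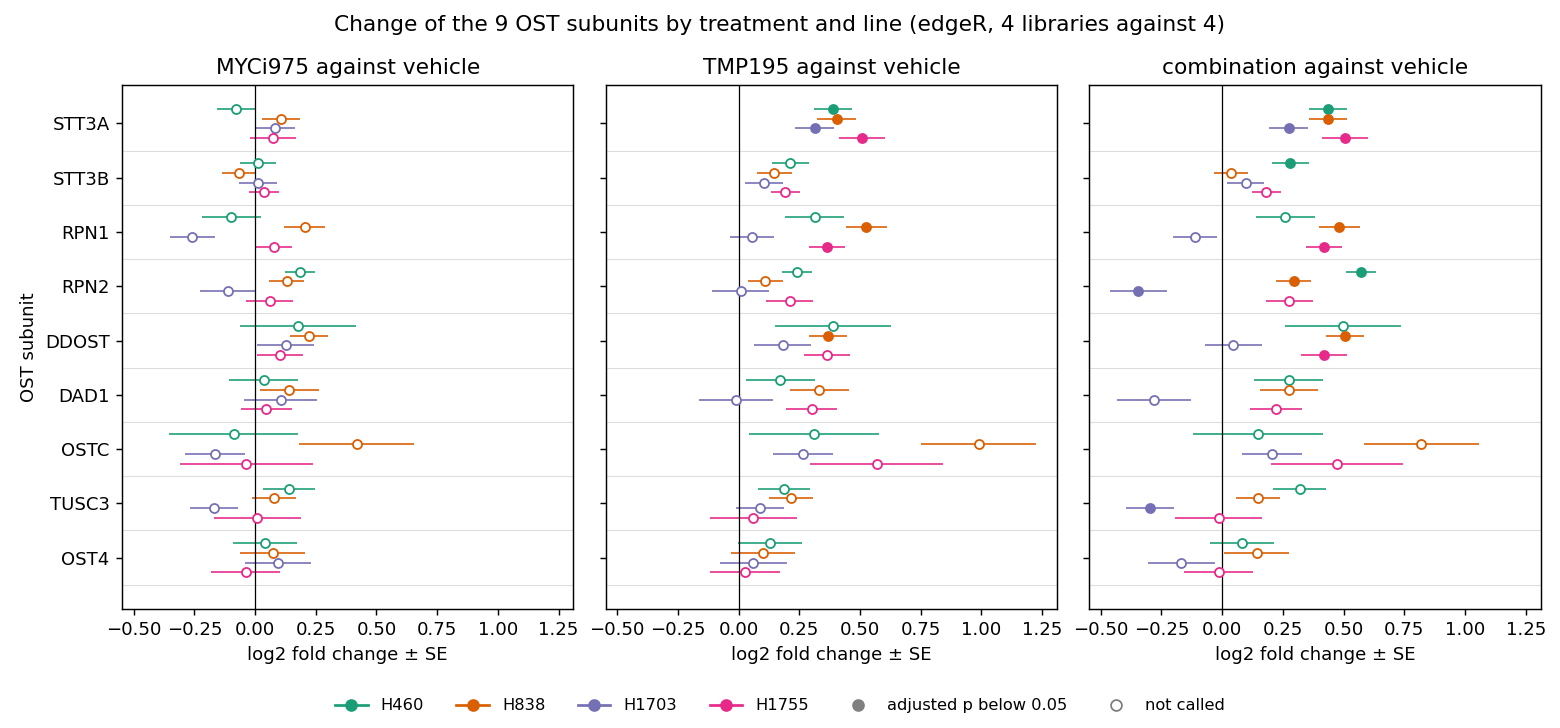
Log2 fold change (± SE) of the 9 OST subunits against vehicle in the 4 lines for MYCi975, TMP195 and the combination, with filled points where the edgeR adjusted p is below 0.05. No MYCi975 point is filled, STT3A is filled in all 4 lines for TMP195 and the combination, and RPN2 and TUSC3 in H1703 are the filled points below 0.

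Direct comparisons between the treated groups gave few calls. In H460, STT3A was higher with the combination than with MYCi975 (log2 0.51 ± 0.08, adjusted p = 0.0103) and higher with TMP195 than with MYCi975 (0.47 ± 0.08, adjusted p = 0.0242). RPN2 in H460 was higher with the combination than with MYCi975 (0.39 ± 0.06, adjusted p = 0.0134) and than with TMP195 (0.33 ± 0.06, adjusted p = 0.011). In H1703, TUSC3 was lower with the combination than with TMP195 (-0.39 ± 0.10, adjusted p = 0.0355). By edgeR, 0 members were called in the other 8 of 12 comparisons, where 0 to 6 members had an unadjusted p below 0.05; DESeq2 added calls in H838 and H1755. In the 4 comparisons with calls, 0.768%, 0.184% and 2.74% of all genes were higher for the H460 comparisons of combination with MYCi975, TMP195 with MYCi975 and combination with TMP195, and 2.97% lower in the H1703 one. In the 8 without, the shares of all genes called were 0.0242%, 0.0436% and 0.0194% in H838 (combination with MYCi975, combination with TMP195, TMP195 with MYCi975), 1.7% and 0.0192% in H1703 (combination and TMP195 with MYCi975) and 0.0544%, 0% and 0.114% in H1755, in the order of H838. The calls of STT3A and RPN2 against MYCi975 were lost without MYCi975 replicate 1 (adjusted p 0.0542 for the combination). The STT3A difference of TMP195 from MYCi975 was lost without any MYCi975 replicate or TMP195 replicate 1 or 4 (0.0563 to 0.0983), and the TUSC3 difference without TMP195 replicate 1, 2 or 4 or combination replicate 1, 3 or 4 (0.0562 to 0.117). With the replicate number as a block, where same-numbered libraries deviated together, TMP195 differed from MYCi975 for 0 members in H1703 (0.451% of all genes called). TMP195 exceeded MYCi975 for 3 members in H460 (STT3A, STT3B, RPN1) and 4 in H1755 (STT3A, RPN1, DDOST, OSTC), against 1.81% and 2.15% of all genes called. In H1755 the combination exceeded MYCi975 for 5 members in that fit (the same 4 and RPN2; 3.19% of all genes). The combination did not differ from the sum of the single-agent effects for any of 9 members in any of 4 lines by edgeR or DESeq2, with 0 members at an unadjusted p below 0.05 (edgeR called 0.144% of all genes in H1703 and 0% in the others).

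Averaged over the 4 lines in a single fit of all 64 libraries, TMP195 raised 5 members and the combination 6, where 2.58% and 13.6% of all genes rose. For TMP195 these were STT3A (0.40 ± 0.04), OSTC (0.53 ± 0.13), DDOST (0.32 ± 0.07), RPN1 (0.31 ± 0.05) and STT3B (0.16 ± 0.03), with adjusted p = 1.43e-09, 0.00708, 0.00405, 1.81e-05 and 0.00177. For the combination they were STT3A (0.42 ± 0.04), OSTC (0.41 ± 0.13), DDOST (0.37 ± 0.07), RPN1 (0.27 ± 0.05), RPN2 (0.20 ± 0.05) and STT3B (0.15 ± 0.03), with adjusted p from 4.68e-11 for STT3A to 0.0103 for OSTC. DAD1, TUSC3 and OST4 were not called by either mean (0.20, 0.13 and 0.08 with TMP195). These means include the H1703 falls of RPN2 and TUSC3 under the combination. A difference between lines was called for 0 of 9 members with TMP195 (edgeR, 0.519% of all genes; 1 member at an unadjusted p below 0.05, and 0 by DESeq2) and for RPN1 and RPN2 with the combination (8.41%). Without replicate 1 or 2 the TMP195 means of STT3B and DDOST were not called (adjusted p at most 0.0882), and without replicate 1, 2 or 3 neither was OSTC under TMP195 or the combination (at most 0.16 and 0.123). With the replicate number as a block, 8 members were called for the TMP195 mean, all but OST4 (18.9% of all genes), and a difference between lines for 2, RPN1 (adjusted p = 0.00948) and OSTC (0.00326), where 12.2% of all genes had one.

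The catalytic balance was examined as the ratio of STT3A to STT3B counts within each library, which needs no scaling between libraries. With vehicle the ratio was 0.79, 0.76, 0.76 and 0.74 in H460, 0.47, 0.44, 0.42 and 0.39 for H838, 0.46, 0.47, 0.44 and 0.44 for H1703 and 1.01, 1.09, 1.04 and 0.90 for H1755; these are ratios of counts, not corrected for the greater exon length of STT3A. With TMP195 it was 0.81, 0.88, 0.86 and 0.90 in H460, 0.53, 0.50, 0.53 and 0.50 for H838, 0.51, 0.55, 0.53 and 0.50 for H1703 and 1.26, 1.37, 1.34 and 1.07 for H1755. The groups did not overlap in H460, H838 and H1703. With the combination they did not overlap in any line, at 0.84, 0.86, 0.82 and 0.88, 0.62, 0.54, 0.53 and 0.60, 0.50, 0.49, 0.58 and 0.49 and 1.29, 1.32, 1.37 and 1.10 in the same order of lines. An exact 2-sided permutation test of 4 against 4 libraries cannot go below p = 0.0286, the value each of these 7 comparisons reached, and over the 24 comparisons within lines none passed after adjustment (lowest adjusted p = 0.0571).

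Permuting within lines over all 16 libraries of each treatment (100000 resamples, 2-sided), the log2 ratio rose by 0.24 with TMP195, or 1.18-fold, and by 0.26 with the combination, or 1.20-fold. Both had a permutation p = 1e-05, the smallest these resamples can give (adjusted over 6 such tests, 3e-05). With MYCi975 the change was 0.05 (permutation p = 0.192, adjusted 0.287). A ratio shows an unequal change of its 2 genes; the separate values of STT3A and STT3B are given above.

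TUSC3 and MAGT1 occupy the same place in the STT3B complex, and their count ratio differed most in H1703. It was 0.22, 0.19, 0.20 and 0.20 there with vehicle, 0.24, 0.26, 0.25 and 0.35 with MYCi975, 0.29, 0.32, 0.26 and 0.30 with TMP195 and 0.25, 0.25, 0.28 and 0.35 with both, with no overlap between vehicle and any treated group. The log2 differences were 0.42, 0.53 and 0.46 (exact permutation p = 0.0286 each, adjusted 0.0571). In H460 the ratio was 0.57, 0.58, 0.54 and 0.55 with vehicle and 0.67, 0.70, 0.59 and 0.80 with MYCi975, and in H1755 it was 1.28, 1.29, 1.21 and 0.87 with vehicle and 0.96, 1.09, 0.94 and 0.64 with TMP195. MAGT1 itself fell in H1703 with each treatment. From 87.7, 77.9, 76.0 and 81.9 CPM with vehicle it went to 63.1, 57.4, 60.2 and 39.3 with MYCi975 (-0.56 ± 0.12, adjusted p = 0.00722), 64.8, 57.6, 57.1 and 59.1 with TMP195 (-0.44 ± 0.12, adjusted p = 0.029) and 50.2, 55.9, 48.4 and 39.6 with the combination (-0.74 ± 0.12, adjusted p = 0.000157). It rose in H1755, from 53.0, 48.0, 52.7 and 51.0 to 72.5, 68.5, 61.5 and 71.4 with TMP195 (0.42 ± 0.08, adjusted p = 0.0253). Its response differed between lines for TMP195 (adjusted p = 0.00122) and for the combination (2.16e-06). Over all lines, the log2 ratio of TUSC3 to MAGT1 rose by 0.18 with MYCi975 (permutation p = 0.0236, adjusted 0.0472). That call was lost within the first library set alone (0.14, adjusted 0.0845) and without replicate 1, 2 or 3 (0.14 to 0.21 over the 4 omissions). It did not pass with TMP195 (-0.04, adjusted 0.667) or the combination (0.05, adjusted 0.667).

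**Figure D4:**
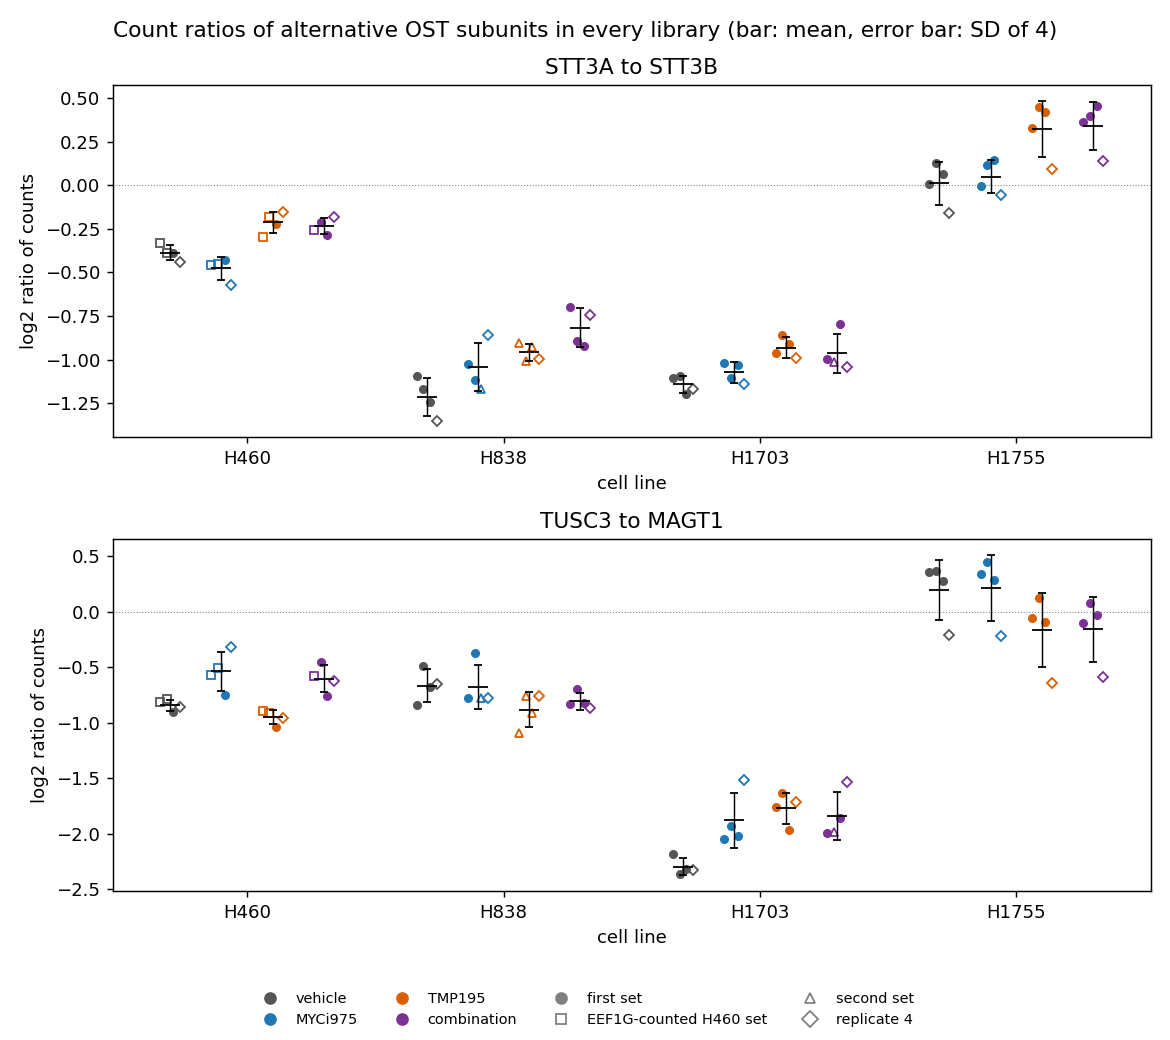
Log2 ratio of counts of STT3A to STT3B (top) and TUSC3 to MAGT1 (bottom) in each library, by line and treatment; bars are means and error bars the SD of 4 libraries, and the dotted line marks equal counts. In the top plot the TMP195 and combination means lie above vehicle in every line; in the bottom plot the 4 vehicle libraries of H1703 lie below its 12 treated libraries.

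Among the 4 other OST subunits, TMEM258, KRTCAP2, MAGT1 and MLEC (malectin, a glucose-binding lectin that associates with RPN1), 0 were called for the mean effect of any treatment, where 6.56% of all genes were called with MYCi975, 4.04% with TMP195 and 25.4% with the combination. Single lines had calls. In H1703, MAGT1 and MLEC were lower with MYCi975, MAGT1 with TMP195, and both with the combination, while KRTCAP2 was higher with it (0.60 ± 0.21, adjusted p = 0.0356). KRTCAP2 was low there, at 2.98 ± 0.356 CPM with vehicle and 4.52 ± 0.879 with the combination. Its highest combination library, at 5.63 CPM, was the second-set library of H1703. MLEC rose with TMP195 in H838 (0.49 ± 0.09, adjusted p = 0.0146), and with the combination there (0.39 ± 0.09, adjusted p = 0.023), and fell in H1703 with MYCi975 (-0.43 ± 0.11, adjusted p = 0.0143) and with the combination (-0.70 ± 0.11, adjusted p = 7.24e-05). Its effect differed between lines for TMP195 (adjusted p = 0.00284) and for the combination (1.26e-07). KRTCAP2 was 49.3 to 63.98 CPM in the EEF1G-counted H460 libraries and 4.24 to 7.95 CPM in the others of H460, and shares exons with another annotated gene, so its values there are uncertain.

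Genes of the steps before and after OST are described by their mean effects over the 4 lines. These lists were chosen with earlier results of these data known, so their counts are a description, and no difference between lists was tested. Over all genes, 4.21% rose and 2.36% fell with MYCi975, 2.58% and 1.46% with TMP195, and 13.6% and 11.8% with the combination. Of 24 genes that assemble the lipid-linked oligosaccharide, 3 rose in the mean over lines with TMP195 and 0 fell, where 2.58% of all genes rose. With the combination 4 rose and 4 fell, near the shares over all genes. Within lines, the 4 called falls with the combination were in H1703, among them DOLPP1 and NUS1. In that line 4 genes of the list also rose, where 19.9% of all genes rose and 18.5% fell. ALG2, a mannosyltransferase of early assembly, rose by 0.38 ± 0.05 with TMP195 and 0.28 ± 0.05 with the combination (adjusted p = 6.3e-07 and 1.75e-05), and ALG13, part of the second N-acetylglucosamine transfer, by 0.31 ± 0.08 with the combination. DOLPP1, which recycles the dolichol carrier, fell with the combination (-0.32 ± 0.11, adjusted p = 0.0264), while SRD5A3, which makes dolichol, was 0.45 ± 0.25 and not called. The list's median log2 change was 0.02 with TMP195 and 0.00 with the combination, against 0.00 over all genes in both.

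Of 11 genes of sugar nucleotide supply, 4 rose in the mean with TMP195 and 6 with the combination, and 0 fell. Within lines, against vehicle, the single called fall was UGP2, which makes UDP-glucose, in H1703 with the combination (-0.21 ± 0.07, adjusted p = 0.0261). GFPT1, the rate-limiting enzyme of the hexosamine pathway, rose by 0.42 ± 0.11 with TMP195 and 0.82 ± 0.11 with the combination. PGM3, of the same pathway, rose by 0.49 ± 0.07 and 0.57 ± 0.07, and GMPPA, which regulates GDP-mannose synthesis, by 0.53 ± 0.07 and 0.54 ± 0.07. GMPPB, the catalytic partner of GMPPA, rose by 0.32 ± 0.07 with TMP195, and GFPT2 by 0.43 ± 0.13 with the combination. MPI, which converts fructose 6-phosphate to mannose 6-phosphate, was 0.20 ± 0.08 with MYCi975, not called. The combination effect differed between lines for GMPPA (adjusted p = 0.0144) and GMPPB (0.00975). The list's medians were 0.09 with TMP195 and 0.25 with the combination.

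Downstream, 11 of 18 genes of glycan trimming and lectin-assisted folding rose in the mean with TMP195, 16 with the combination and 5 with MYCi975, and 0 means fell. CALR (calreticulin) was called lower in H1703 with MYCi975 (-0.48 ± 0.11, adjusted p = 0.00932) and with the combination (-0.38 ± 0.11, adjusted p = 0.0102), and higher with the combination in H838 and H1755. EDEM2, which starts mannose trimming of misfolded glycoproteins, was called in 4 lines with TMP195 and in 4 with the combination, at means of 0.63 ± 0.07 and 0.81 ± 0.07. EDEM1, of the same family, rose by 0.40 ± 0.07 and 0.60 ± 0.07, PDIA3, the disulfide isomerase that works with calnexin, by 0.34 ± 0.06 and 0.46 ± 0.06, and the ER lectin ERLEC1 by 0.40 ± 0.05 with TMP195. CANX (calnexin) rose by 0.42 ± 0.04 with the combination. With MYCi975, UGGT2, a folding sensor that reglucosylates glycoproteins, rose by 0.33 ± 0.07 and NGLY1, which removes glycans from degraded glycoproteins, by 0.21 ± 0.05, while the mean of CALR was -0.13 ± 0.04, not called. The combination effect differed between lines for 7 of the 18 genes, among them CALR (adjusted p = 5.33e-06; 0.00135 for TMP195), PDIA3 (0.000842), EDEM1 (0.0059) and ERLEC1 (0.00637), where 8.41% of all genes differed. The list's medians were 0.20, 0.36 and 0.16 for TMP195, the combination and MYCi975.

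The translocon and signal peptidase list, whose proteins stand beside OST at the ER membrane, had 10 of 16 genes up in the mean with TMP195 and 10 with the combination, 0 down with either, and 2 up and 1 down with MYCi975. In H1703 the combination had 2 genes up, 1 down and a median of -0.06, against 8, 10 and 5 up, 0 down and medians of 0.47, 0.66 and 0.49 for H460, H838 and H1755. Of all genes tested, 19.9% rose and 18.5% fell in H1703, and 9.72%, 2.29% and 1.23% rose in the other lines in that order. The combination effect differed between lines for 7 of the 16 genes (8.41% of all genes), among them SSR3 (adjusted p = 0.00769), SSR4 (0.0103), SSR1 (0.000747) and SEC61A1 (0.000783). SSR3 and SSR1, of the translocon-associated complex, rose by 0.55 ± 0.05 and 0.51 ± 0.05 with TMP195, and SEC61A1, the channel itself, by 0.51 ± 0.06; each was called in 3 lines. SEC11C, a catalytic signal peptidase subunit, rose by 0.79 ± 0.15 with TMP195 and 0.98 ± 0.15 with the combination. SEC63 rose by 0.68 ± 0.06, SSR4 by 0.57 ± 0.05 and SSR3 by 0.54 ± 0.05 with the combination. With MYCi975, SEC63 rose by 0.19 ± 0.06 and SPCS2, a non-catalytic signal peptidase subunit, fell (-0.18 ± 0.05), while the mean of SPCS3 was -0.13 ± 0.06, not called. SPCS3, also of signal peptidase, fell in H1703 with MYCi975 (-0.50 ± 0.14, adjusted p = 0.0247) and with the combination (-0.57 ± 0.14, adjusted p = 0.00318), and its effect differed between lines for TMP195 (adjusted p = 0.0403), as did that of SSR2 (0.000206). The medians were 0.35 with TMP195, 0.43 with the combination and 0.00 with MYCi975. Beside these, the 9 OST members had medians of 0.20, 0.20 and 0.04.

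The genes whose levels ran most like STT3A over the 16 group means, after each line's mean log2 CPM was removed, were ERP44 (Pearson r = 0.986), HSP90B1 (0.971), CANX (0.970), SND1 (0.970) and ERO1B (0.968), among 12318 genes with a mean of at least 5 CPM. For TUSC3, without that removal, they were ARHGEF19 (0.991), MPP1 (0.990), ADAMTS6 (0.989), TMSB4X (0.989) and NLRC5 (0.988). The 16 points share libraries and vehicle groups, and for TUSC3 they fall into 4 lines, so these values describe likeness only.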

How the data were processed

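RNA from 4 lung cancer lines was sequenced as total RNA with a stranded kit, per the labels' protocols. The authors deposited raw read counts per gene; Trimmomatic, STAR, featureCounts and GRCh38 (hg38) are named in the submitters' processing notes, with versions not given in the sources used here. All 64 columns were matched by title and 0 were left unmapped. TMP195 replicate 1 of H838 has a different line tag in some of its labels, so that its title decided its group.

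Each line was fitted with edgeR 4.0.16 in R 4.3.3 (TMM scaling, filterByExpr, quasi-likelihood test) on 4 group means; all 64 libraries were fitted together for the mean over lines and its difference between lines, and the vehicle libraries for line pairs. p-values were adjusted by Benjamini-Hochberg over all genes tested, with a threshold of 0.05. All 9 members passed the filter in every fit. CPM are TMM-scaled over 64 libraries, and levels of different genes were compared per kilobase of GENCODE 29 exon. Count ratios were tested by exact permutation (scipy 1.17.1) or by 100000 permutations within lines. Statistical steps were tested on simulated data. The lowest count of a member in any library was 295.

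Same-numbered libraries were taken as paired where all 4 correlations of their deviations were above 0.1. This held for TMP195 against vehicle in all 4 lines, MYCi975 against vehicle in H460, H1703 and H1755, and the combination against vehicle in H838 and H1755; the numbers come from the titles, and the main fits have no block. Alternatives were DESeq2 1.42.0, its size factors, no filter, the replicate block, a library set term, the first set alone, 1 fit of all libraries, library sizes without abundant noncoding RNA, and left-out libraries. Members and lists were chosen with earlier results of these data known. Values for every library are given for members called in 2 or more lines for a treatment, or with vehicle means more than 2-fold apart; other lists name up to 4 genes per treatment.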

Additional observations from a re-analysis of the deposited data

Results flagged for a closer look

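Values that stood apart from the rest of their group of 4 libraries by Dixon's test are given here, together with differences between lines. Chance alone marks about 1 in 20 groups, and 10 of 176 groups of member levels and count ratios were marked. STT3A in vehicle replicate 1 of H838 was 160.6 CPM, against 141.5 to 144.5 in the other 3. STT3B was 228.8 CPM in MYCi975 replicate 4 of H460 (203.5 to 207.6 in the others), 365.4 in TMP195 replicate 4 of H838 (378.8 to 380.9) and 372.9 in combination replicate 3 of H838 (341.7 to 342.5). RPN1 in combination replicate 4 of H460 was 837.3 CPM, against 617.3 to 649.7.

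OSTC in TMP195 replicate 4 of H1755 was 294.4 CPM, against 152.5 to 168.4, and in MYCi975 replicate 4 of H460 144.8, against 89.31 to 93.82. OST4 in TMP195 replicate 4 of H1755 was 22.11 CPM, against 29.6 to 30.08. The log2 ratio of TUSC3 to MAGT1 was -0.2074 in vehicle replicate 4 of H1755 (0.2743 to 0.3679 in the others) and -0.3753 in MYCi975 replicate 2 of H838 (-0.7819 to -0.7752).

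The response to the combination differed between the 4 lines for RPN1 (edgeR, adjusted p = 0.0109) and RPN2 (adjusted p = 1.4e-05), tested as the line by treatment term over 64 libraries. Such a difference was called for 8.41% of all genes. With 1 replicate number left out, the RPN1 difference was called in 1 of 4 fits and the RPN2 difference in 4 of 4.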

How the results depend on the processing

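No called result changed direction under any alternative run. The counts of called members (of 9) that moved by more than 1.5 times are given here; for all of them the cause was not tested. With DESeq2 the counts were 2 for TMP195 in H460, 4 for TMP195 in H1755 and 1 for MYCi975 in H1703 (2.48%, 1.02% and 13.6% of all genes called). Between treated groups, DESeq2 called 1 (combination against MYCi975) and 2 (TMP195 against MYCi975) in H838, 2 (combination against TMP195) in H1703, and 2 in each of the comparisons with MYCi975 in H1755. The shares of all genes called were 0.252%, 0.495%, 10.2% and, for each of the H1755 comparisons, 0.391%. DESeq2's size factors, library sizes without abundant noncoding RNA and 1 fit of all 64 libraries each gave 1 for TMP195 in H1755 (0.391%, 0.403% and 0.35% of all genes). Without a filter the counts were 0 for TMP195 in H460, H1703 and H1755 (0.315%, 4.08% and 0.124% of all genes), and 1 (STT3A) for the combination in H1755 (0.465%). The TMP195 calls of STT3A in all 4 lines, DDOST in H838 and RPN1 in H1755 were lost in that setting, and STT3A for the mean over lines was not (adjusted p = 7.14e-09). That setting also ended the combination calls of STT3B in H460, RPN2 in H838, TUSC3 in H1703, and RPN1 and DDOST in H1755 (edgeR adjusted p 0.0579 to 0.142). OSTC in H838 was called in it with TMP195 and with the combination. Within the first set alone the counts of called members were 3 for TMP195 in H1703, and 4 for TMP195 and 5 for the combination in H1755 (17.5%, 1.82% and 7.0% of all genes). The MYCi975 change in the log2 ratio of TUSC3 to MAGT1 was 0.1399 there. In H460 that set holds only replicate 3 of vehicle, so no count is given for it.

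With a library set term, H460 had 6 (TMP195), 7 (combination), 6 and 2 (combination against MYCi975 and TMP195) and 3 (TMP195 against MYCi975). The shares of all genes called were 5.48%, 31.5%, 10.8%, 17.1% and 2.33% in that order. H838 had 1 (TMP195) and 2 (combination against MYCi975), with 0.32% and 0.369% of all genes called. H1755 had 6, 6, 4 and 4 for TMP195, the combination and their differences from MYCi975, with 4.29%, 15.0%, 0.964% and 0.984% of all genes. H1703 had 1 (MYCi975), 2 (TMP195), 2 and 2 (combination against MYCi975 and TMP195) and 1 (TMP195 against MYCi975). There 24.5%, 22.7%, 14.4%, 18.5% and 0.365% of all genes were called. The term gave 1 for the MYCi975 mean over lines (20.1% of all genes), and 1, 1 and 6 for a difference between lines with MYCi975, TMP195 and the combination (5.16%, 6.16% and 26.7%).

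With the replicate block, the counts were 4, 7, 5 and 3 in H460 (TMP195, combination, combination against MYCi975, TMP195 against MYCi975), 1 and 2 in H838 (combination and TMP195 against MYCi975), and 1, 2, 5 and 4 in H1703 (MYCi975, TMP195, combination against MYCi975 and against TMP195). In H1755 they were 7 (TMP195), 7 (combination), 5 (combination against MYCi975) and 4 (TMP195 against MYCi975), with 10.5%, 24.2%, 3.19% and 2.15% of all genes called. The block gave 1 and 8 for the MYCi975 and TMP195 means (21.5% and 18.9% of all genes) and 1, 2 and 7 for a difference between lines (6.64%, 12.2% and 29.6%). It gave 5, 5 and 8 for vehicle H460 against H838, H460 against H1755 and H1703 against H1755 (66.3%, 63.9% and 62.9%).

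Leaving out 1 library or replicate number gave 0 to 1, 0 to 5, 0 to 2 and 0 to 4 called members for TMP195 in H460, H838, H1703 and H1755, and 2 to 5, 0 to 5, 0 to 4 and 0 to 5 for the combination. Against MYCi975 the combination had 0 to 4 in H460 and 0 to 3 in the other lines, and TMP195 0 to 1 in H460, 0 to 3 in H838 and 0 to 2 in H1755; against TMP195 the combination had 0 to 1 in H460 and H838 and 0 to 2 in H1703. Beyond the sum it was 0 to 1 in H838. The means gave 2 to 7 (TMP195) and 5 to 6 (combination), differences between lines 0 to 2 and 1 to 3, and the vehicle pairs 2 to 6. The shares of all genes called in these left-out fits are not given here. The log2 ratio of TUSC3 to MAGT1 under MYCi975 ranged from 0.1422 to 0.2131. Where an arm is reduced, the remaining libraries are assumed to vary like the other groups.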

Other observations

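Within groups, replicate 4 stood apart for several members in a like way over treatments and lines. OSTC was highest there in 14 of 16 groups, while OST4 was lowest there in 12, and DDOST and DAD1 in 10 each.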
